A study of Mus musculus with 79 samples.

Results

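The potassium channel genes are 89 of the 25965 gene rows in the expression table of the adult hypothalamus. The rule that picks them uses gene names alone: every row named Kcn with a letter from a to v and a number, together with Kcnma1, Kcnmb1 to Kcnmb4 and Kcnip1 to Kcnip4. Kcnk9 and the non-coding Kcnq1ot1 were left out. The 89 genes fall into 30 voltage-gated pore subunits (Kcna, Kcnb, Kcnc, Kcnd, Kcnh and Kcnq), 10 silent modifier subunits (Kcnf, Kcng, Kcns and Kcnv), 8 genes in a class called calcium- and sodium-activated (Kcnma, Kcnn, Kcnt and Kcnu), 15 inward rectifiers (Kcnj), 13 tandem-pore channels (Kcnk) and 13 auxiliary subunits (Kcne, Kcnip and Kcnmb). Classes were set by letter, and calcium or sodium activation is not claimed for Kcnu.

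Potassium channels let potassium leave or enter the cell along its gradient and so set the resting potential and end the action potential. Voltage-gated channels open on depolarisation, calcium-activated channels follow the calcium that enters during firing, inward rectifiers hold the membrane near rest or couple it to G proteins and ATP, and tandem-pore channels carry leak current. Silent modifier and auxiliary subunits do not make a channel alone but alter the gating of a pore-forming partner. In the hypothalamus, ATP-sensitive inward rectifiers are known for glucose sensing in neurons that control feeding, and a glial inward rectifier clears potassium around active neurons.

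The study compared the hypothalamus of +/+ mice with that of Dnmt3a Δ/D329A mice at about 14 weeks on a C57BL/6 background. In the latter, the maternal allele (Δ) lacks exon 18 of the DNA methyltransferase gene Dnmt3a after recombination in the oocyte by Zp3-driven Cre, and the paternal allele carries the point mutation D329A in the PWWP domain, which reads methylated histone tails. The D329A protein is thus the sole functional form in every cell, and the 2 alleles cannot be told apart in a comparison with +/+ alone. RNA-seq covered 5 +/+ and 4 Δ/D329A animals. A supplementary legend of the study calls them female, while the legend that shows RNA, methylation and ChIP tracks together says male. ChIP-seq covered 3 animals of each genotype, described as males, for H3K4me3, H3K27me3 and H3K36me3, each with an input library. H3K4me3 marks active and poised promoters, H3K27me3 marks Polycomb-repressed genes, and H3K36me3 is laid down along transcribed gene bodies.

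Expression was given as log2 RPKM (reads per kilobase of exon, scaled to library size), so levels can be set side by side between genes. Marks were given as reads scaled to library size (RPM) in 2000 bp tiles, averaged here over the promoter (1500 bp before to 500 bp after the start of the gene row) and over the gene body (the rest of the row). The RNA libraries were scaled to between 10519195 and 18386073 reads, the H3K4me3 libraries to between 12676361 and 15944966, the H3K27me3 libraries to between 14874942 and 26178088, and the H3K36me3 libraries to between 19056381 and 22850001. Dnmt3a itself lay at 1.91 ± 0.16 log2 RPKM (SD, n = 5) in +/+ and at 1.63 ± 0.09 (n = 4) in Δ/D329A (limma adjusted p = 0.355). This level sums over all exons, so it checks neither the lost exon nor the point mutation. All 14 hypothalamic neuropeptide markers were in the table, with a summed level of 414 to 870 RPKM in +/+ and 479 to 698 in Δ/D329A. Mitochondrial reads differed between ChIP libraries of both genotypes: +/+ replicate 3 and Δ/D329A replicates 2 and 3 held 29.5 to 44.6 RPM on average in the H3K4me3 libraries and the other 3 held 14.8 to 19.2. In H3K27me3 the libraries with those numbers held 18.1 to 36.8 and the others 4.07 to 10.3. In H3K36me3 the 2 sets of libraries overlapped, at 7.59 to 14.4 and 5.998 to 9.47, and in the input libraries as well, at 41.9 to 49.2 and 25.2 to 83.0. The part of this split in the results was not tested, beyond the values with it as a block given for Kcnj8, Kcng3, Kcnh8 and Kcne3.

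Promoter sequences of the members that carry the main results are shown first. They are the 250 bases upstream of a start, from RefSeq on GRCm38.p6, written 5′ to 3′ on the strand of the gene. Every CG dinucleotide is in capitals. Dnmt3a methylates CG and, as the study states, cytosines in other contexts as well. Kcnj8 had the promoter called lower in H3K4me3, Kcnh8 the promoter called higher in H3K27me3, and Kcng3 and Kcnj10 had RNA whose groups did not overlap. Kcnd2 stands for a promoter with H3K4me3 and little H3K27me3, and Kcnk15 for one with H3K27me3 alone. For Kcnj16, 2 starts are shown, since the start of the gene row lay in a stretch without H3K4me3.
Kcnj8 (chr6:142571615-142571864, minus strand): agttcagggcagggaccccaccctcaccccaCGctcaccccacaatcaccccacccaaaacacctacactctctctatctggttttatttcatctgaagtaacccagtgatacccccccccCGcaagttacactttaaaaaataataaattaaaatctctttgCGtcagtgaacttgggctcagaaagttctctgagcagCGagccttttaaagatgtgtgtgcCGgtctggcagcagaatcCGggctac
Kcnh8 (chr17:52602459-52602708, plus strand): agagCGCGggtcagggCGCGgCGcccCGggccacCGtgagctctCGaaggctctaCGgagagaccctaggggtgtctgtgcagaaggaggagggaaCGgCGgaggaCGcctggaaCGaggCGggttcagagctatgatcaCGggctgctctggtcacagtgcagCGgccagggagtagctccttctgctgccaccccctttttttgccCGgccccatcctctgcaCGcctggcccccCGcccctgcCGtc
Kcng3 (chr17:83631896-83632145, minus strand): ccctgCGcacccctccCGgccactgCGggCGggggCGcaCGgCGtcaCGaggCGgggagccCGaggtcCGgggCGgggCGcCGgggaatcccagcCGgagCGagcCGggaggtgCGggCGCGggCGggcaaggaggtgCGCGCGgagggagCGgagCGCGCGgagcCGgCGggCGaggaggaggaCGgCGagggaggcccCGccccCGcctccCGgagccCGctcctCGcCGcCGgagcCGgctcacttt
Kcnj10 (chr1:172340960-172341209, plus strand): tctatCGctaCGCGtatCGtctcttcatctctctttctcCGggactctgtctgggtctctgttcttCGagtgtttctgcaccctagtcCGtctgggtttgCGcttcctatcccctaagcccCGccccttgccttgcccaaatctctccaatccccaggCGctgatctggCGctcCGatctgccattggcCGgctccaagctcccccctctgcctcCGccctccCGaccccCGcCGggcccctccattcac
Kcnd2 (chr6:21215096-21215345, plus strand): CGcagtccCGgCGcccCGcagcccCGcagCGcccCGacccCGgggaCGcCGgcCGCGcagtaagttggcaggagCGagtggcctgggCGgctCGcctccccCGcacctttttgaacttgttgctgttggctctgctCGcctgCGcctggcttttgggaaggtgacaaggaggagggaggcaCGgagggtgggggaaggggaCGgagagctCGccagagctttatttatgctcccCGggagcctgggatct
Kcnk15 (chr2:163853500-163853749, plus strand): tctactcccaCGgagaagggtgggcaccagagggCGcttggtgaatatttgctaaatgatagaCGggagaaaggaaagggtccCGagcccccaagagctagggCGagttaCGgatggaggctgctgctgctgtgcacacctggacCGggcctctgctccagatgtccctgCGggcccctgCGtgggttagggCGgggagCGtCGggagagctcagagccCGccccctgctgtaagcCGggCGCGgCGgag
Kcnj16, first start (chr11:110967783-110968032, plus strand): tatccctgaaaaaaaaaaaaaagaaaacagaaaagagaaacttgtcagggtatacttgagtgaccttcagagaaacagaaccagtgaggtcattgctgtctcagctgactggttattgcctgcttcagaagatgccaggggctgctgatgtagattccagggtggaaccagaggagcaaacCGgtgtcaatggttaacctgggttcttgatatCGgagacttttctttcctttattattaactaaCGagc
Kcnj16, second start (chr11:110997237-110997486, plus strand): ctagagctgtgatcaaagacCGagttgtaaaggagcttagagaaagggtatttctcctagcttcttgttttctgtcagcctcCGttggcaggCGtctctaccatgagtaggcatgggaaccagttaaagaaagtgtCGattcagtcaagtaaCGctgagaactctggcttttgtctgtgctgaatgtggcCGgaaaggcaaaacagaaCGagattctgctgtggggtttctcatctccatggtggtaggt

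The windows differ widely in CG content. The Kcng3 window held 41 CG dinucleotides, the Kcnd2 window 22, the Kcnh8 window 20, and the Kcnj10 and Kcnk15 windows 17 each. The Kcnj8 window held 6, and the 2 Kcnj16 windows held 3 and 7. RefSeq windows were at hand for 66 members, of which 60 lay within 500 bp of the start of the gene row. Over these 60, the median was 9 CG dinucleotides, with a range from 0 to 43, against a median of 11 over 14133 promoters matched the same way. The letters GGGCGG, on either strand, were in 31 of the 60 windows (51.7%) and in 44.8% of all matched windows, and TATAAA, on either strand, was in 2 (3.33%, against 12.1%).

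Expression covered a wide range within every class. Of the 89 genes, 74 passed the filter on low values (at least 0.1 RPKM in at least 4 libraries). The 15 others were Kcna7, Kcna10, Kcne1, Kcne2, Kcne3, Kcnj1, Kcnj15, Kcnk7, Kcnk15, Kcnk16, Kcnk18, Kcnmb3, Kcnn4, Kcnq1 and Kcnv2. Among them are genes best known from heart (Kcnq1 and Kcne1), kidney (Kcnj1), red blood cells (Kcnn4) and photoreceptors (Kcnv2), and each of the 15 held 0 to 14 reads over all 5 +/+ libraries. The median level in +/+ was highest among the 27 tested voltage-gated genes (2.29 log2 RPKM), followed by the 7 calcium- and sodium-activated genes (1.51), the 9 auxiliary genes (1.14), the 13 inward rectifiers (0.99) and the 9 tandem-pore genes (0.81). It was lowest among the 9 silent modifiers (-0.19).

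The highest level belonged to Kcnj10, the inward rectifier through which astrocytes and oligodendrocytes take up potassium, at 4.57 ± 0.17 log2 RPKM (SD, n = 5) in +/+, above 96.0% of all genes tested. Its lowest +/+ library (4.37) lay above the highest +/+ library of Kcnd2 (3.84), the A-type channel of dendrites, which came next at 3.59 ± 0.24. Kcna2, an axonal delayed rectifier, followed at 3.57, Kcna6 at 3.37, Kcnc2, of fast-spiking neurons, at 3.35, and Kcnip4, the calcium-binding partner of Kcnd channels, at 3.33. These neighbours did not differ beyond their spread, the SDs being 0.23 to 0.35. Kcnj9, a G protein-gated rectifier (3.21), Kcnk1, a weakly rectifying leak channel (3.21), and Kcnma1, the large-conductance calcium-activated channel (3.097), came after them.

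**Figure D1:**
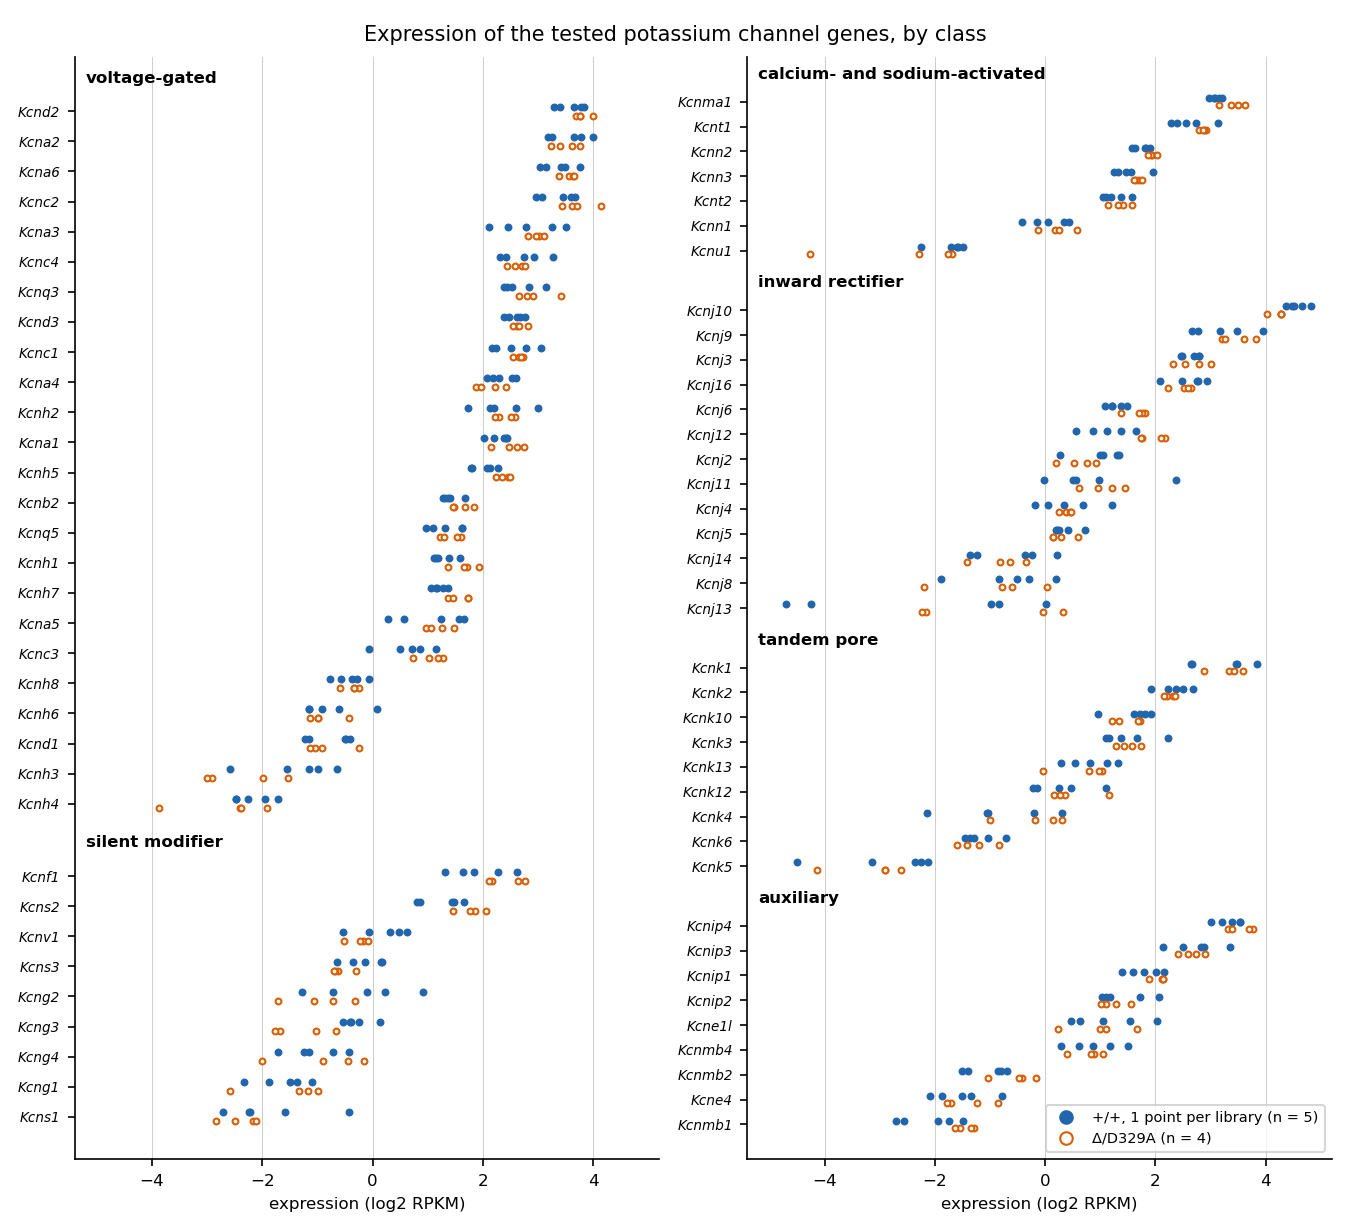
Expression of 71 of the 74 tested potassium channel genes by class, with the log2 RPKM on the horizontal axis and 1 point per library (+/+ filled, n = 5; Δ/D329A open, n = 4). The genotypes overlap in 67 of these genes and lie apart in Kcng3, Kcnj10, Kcnj12 and Kcnh7.

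No potassium channel gene was called differentially expressed between Δ/D329A and +/+ by limma or edgeR, and 1 was by DESeq2. The tools differed in how many genes they called: at an adjusted p under 0.01, DESeq2 called 251 of 20381 genes. The study used DESeq at that threshold. At a limma adjusted p under 0.01, 0 of 74 were called, where 19 of all 17839 genes tested (0.107%) were. At an unadjusted p under 0.05, 11 of 74 differed, where 7.62% of all genes did. Of the 11, 8 were higher in Δ/D329A (background 4.61%) and 3 lower (background 3.02%). edgeR on the reads recovered from the RPKM values called 0 of 72 members (background 0.554%) and put 19 below an unadjusted p of 0.05 (background 16.2%), and DESeq2 called 1 of 87, Kcnj12 (background 1.23%), and put 18 below (background 11.3%). The difference was positive in 43 of 74 members (58.1%) and in 59.6% of all genes, with medians of 0.09 and 0.06 on the log2 scale. In bulk tissue, fewer cells of a type and less RNA per cell cannot be told apart.

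The groups did not overlap in 4 members, 5.41% of those tested, where 3% of all genes tested had groups without overlap. An exact two-sided permutation test over the libraries gives p = 0.0159 for any such gene, the smallest it can give with 5 against 4. The separation by which the 4 were picked fixes this value, so it adds no support. Among the 4, limma called none after adjustment over all genes, while DESeq2 called Kcnj12 (adjusted p = 0.000922).

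Kcng3, on chromosome 17 at 83585957 to 83631895 (GRCm38, minus strand), encodes a silent subunit that joins other voltage-gated subunits and shifts their gating. Its +/+ libraries lay at 0.14, -0.39, -0.24, -0.42 and -0.54 log2 RPKM and its Δ/D329A libraries at -1.03, -1.68, -0.67 and -1.76. All 4 Δ/D329A libraries were below all 5 +/+ libraries. In reads, the +/+ libraries held 38 to 68 and the Δ/D329A libraries 11 to 28. The log2 difference was -0.999 (SE 0.26, limma adjusted p = 0.289), which DESeq2 put at an adjusted p of 0.0385 and edgeR at 0.051.

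Kcnj12, a strong inward rectifier of excitable cells, had the largest difference in the other direction among the 4. The +/+ libraries lay at 1.65, 1.13, 1.37, 0.56 and 0.87 log2 RPKM, and the Δ/D329A libraries at 2.17, 2.10, 1.75 and 1.74. The lowest Δ/D329A library was above the highest +/+ library by less than the spread within either group. The log2 difference was 0.82 (SE 0.22, limma adjusted p = 0.316), with an adjusted p of 0.0181 in edgeR and 0.000922 in DESeq2. With median centring the limma adjusted p was 0.0383 and with TMM factors 0.0413, neither of them a call. The adjusted p thus moved with the scaling as well as with the tool, and only DESeq2 made the call.

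Kcnj10 lay at 4.81, 4.65, 4.47, 4.37 and 4.51 log2 RPKM in +/+ and at 4.27, 4.03, 4.28 and 4.28 in Δ/D329A. The 4 mutant libraries were all lower, by a narrow margin from the lowest +/+ library. It was counted with 929 to 2793 reads per library. The log2 difference was -0.35 (SE 0.14, limma adjusted p = 0.355). The 5 oligodendrocyte markers summed to 261 to 404 RPKM in +/+ and 173 to 328 in Δ/D329A (median log2 difference -0.20), the 5 astrocyte markers to 103 to 153 and 112 to 176 (median 0.22), no marker of either list was called, and their part in the Kcnj10 level was not tested. Kcnj16, the subunit that pairs with Kcnj10, was at 2.60 ± 0.33 and 2.49 ± 0.19.

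Kcnh7, an ether-a-go-go related channel of neurons, lay at 1.14, 1.36, 1.27, 1.06 and 1.16 log2 RPKM in +/+ and at 1.72, 1.36, 1.47 and 1.74 in Δ/D329A. The highest +/+ and the lowest Δ/D329A library are equal to 2 decimals, so the groups barely separate. The log2 difference was 0.37 (SE 0.14, limma adjusted p = 0.355). The Kcnh7 row overlaps Gca on the other strand, and while the study describes a strand-specific library kit, whether the counting used strand is not given, so reads of the 2 genes may not be separated. Gca itself lay at 0.63 ± 0.10 in +/+ and 0.21 ± 0.43 in Δ/D329A.

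**Figure D2:**
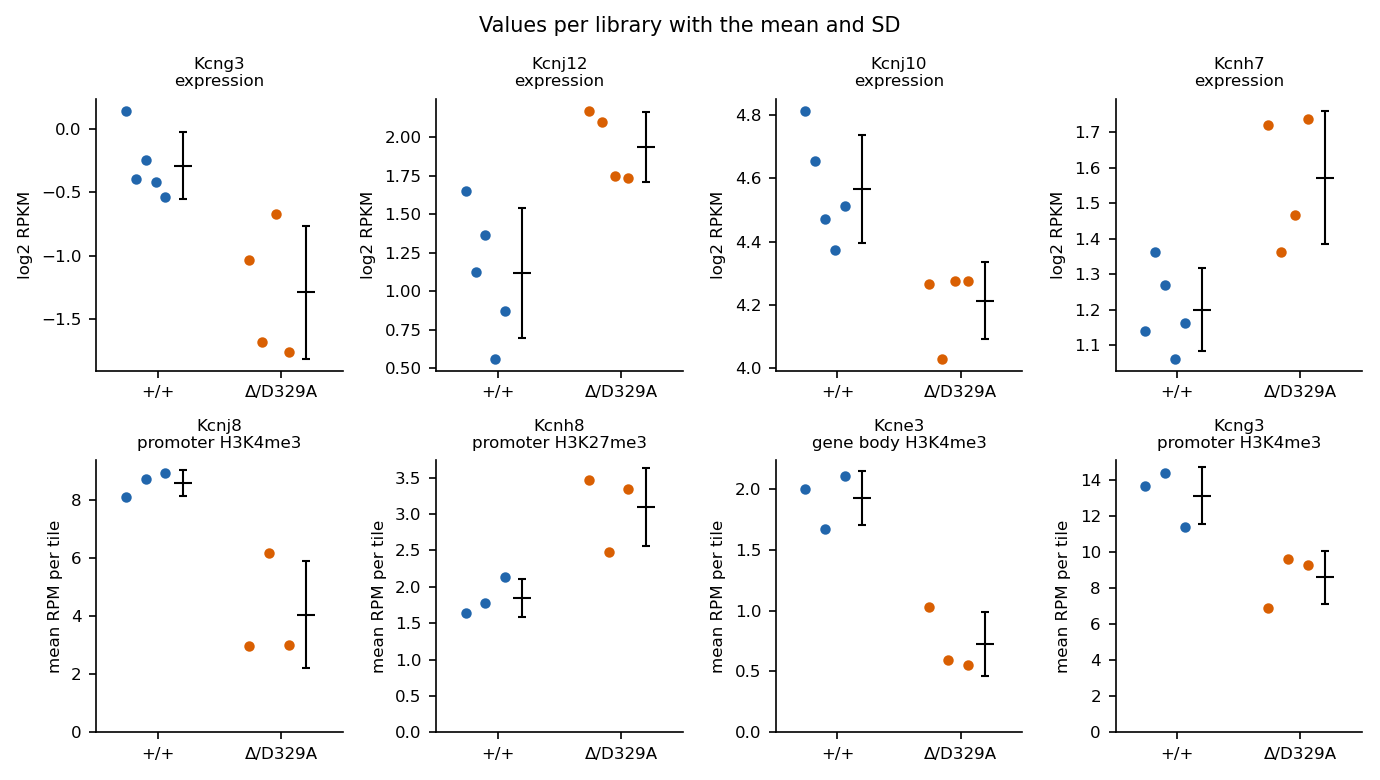
Values per library with the mean and SD beside the points, for expression in log2 RPKM (top, n = 5 and 4) of Kcng3, Kcnj12, Kcnj10 and Kcnh7, and for mean RPM per tile (bottom, n = 3 and 3) of H3K4me3 at the promoters of Kcnj8 and Kcng3, H3K27me3 at the Kcnh8 promoter and H3K4me3 over the Kcne3 body. The log axes of expression do not start at 0. In each panel the groups lie apart.

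The remaining members with an unadjusted p under 0.05 had groups that overlapped. Kcnj6, a G protein-gated rectifier, differed by 0.39 (SE 0.15, exact permutation p = 0.0317), and Kcnh5, an ether-a-go-go channel, by 0.37, with +/+ libraries at 1.79 to 2.27 and Δ/D329A libraries at 2.23 to 2.49 (exact permutation p = 0.0317). Kcnma1 differed by 0.31, with libraries between 2.98 and 3.20 in +/+ and between 3.15 and 3.62 in Δ/D329A, and the silent subunit Kcns2 by 0.53 (both exact permutation p = 0.0476). Kcnh1, another ether-a-go-go channel, differed by 0.39. Kcnmb1, the smooth muscle subunit of Kcnma1, differed by 0.63 on 10 to 23 reads per library, and its row overlaps Kcnip1 on the other strand. Kcnh3, a forebrain channel of the ether-a-go-go-like group, differed by -0.97 on 5 to 42 reads (exact permutation p = 0.111). The permutation p-values use the same libraries by which these 7 were picked, so they add no support. For each of the 7, limma gave an adjusted p of 0.355. Beside these genes, the 6 thalamic neuron markers summed to 39.9 to 62.9 RPKM in +/+ and 47.2 to 78.8 in Δ/D329A. Of these markers, 3 were higher at an unadjusted p under 0.05 (background 4.61%) and 0 were called (background 0.107%). Their part in the differences was not tested.

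By class, median differences ran from -0.41 to 0.17. Among the voltage-gated genes the difference was positive in 19 of 27 with a median of 0.09, and among the calcium- and sodium-activated genes in 6 of 7 with a median of 0.17. Among the silent modifiers 5 of 9 were negative with a median of -0.41, Kcng3, Kcng2, Kcns3 and Kcnv1 being at -0.999, -0.77, -0.41 and -0.41 and Kcnf1 and Kcns2 at 0.49 and 0.53. No member of the tandem-pore class had an unadjusted p under 0.05, the leak channels Kcnk1, Kcnk2, Kcnk3 and Kcnk10 differing by 0.09, -0.08, -0.00 and -0.12. Kcnq3 and Kcnq5, of the M-current, differed by 0.28 and 0.08, and the G protein-gated rectifiers Kcnj3 and Kcnj9 by 0.02 and 0.26. None of these passed the test.

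The ATP-sensitive channel was low and variable. Kcnj11, the pore of the neuronal channel, was at 0.88 ± 0.91 log2 RPKM in +/+ and 1.06 ± 0.36 in Δ/D329A. In +/+, replicate 1 was at 2.38 and the other 4 libraries were at most at 0.98. Kcnj8, the pore of the vascular channel, was at -0.66 ± 0.78 and -0.89 ± 0.94. Their sulfonylurea receptors Abcc8 and Abcc9 differed by -0.25 and -0.42, neither of which passed. Kcnj13, an inward rectifier of choroid plexus and pigment epithelium, lay between -4.70 and 0.02 in +/+ and between -2.24 and 0.32 in Δ/D329A, on 0 to 20 and 3 to 21 reads. It overlaps Gigyf2 on the other strand. The 7 choroid plexus markers summed to 4.06 to 5.82 RPKM in +/+ and 4.51 to 7.60 in Δ/D329A. Singly they went both ways, with log2 differences of 1.82 for Ttr and 0.08 for Folr1. Otx2, Clic6 and Kl were at -0.31, -0.35 and -0.43, and Aqp1 and Slc4a5 were not tested. None was called, and their part in the Kcnj13 spread was not tested.

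**Figure D3:**
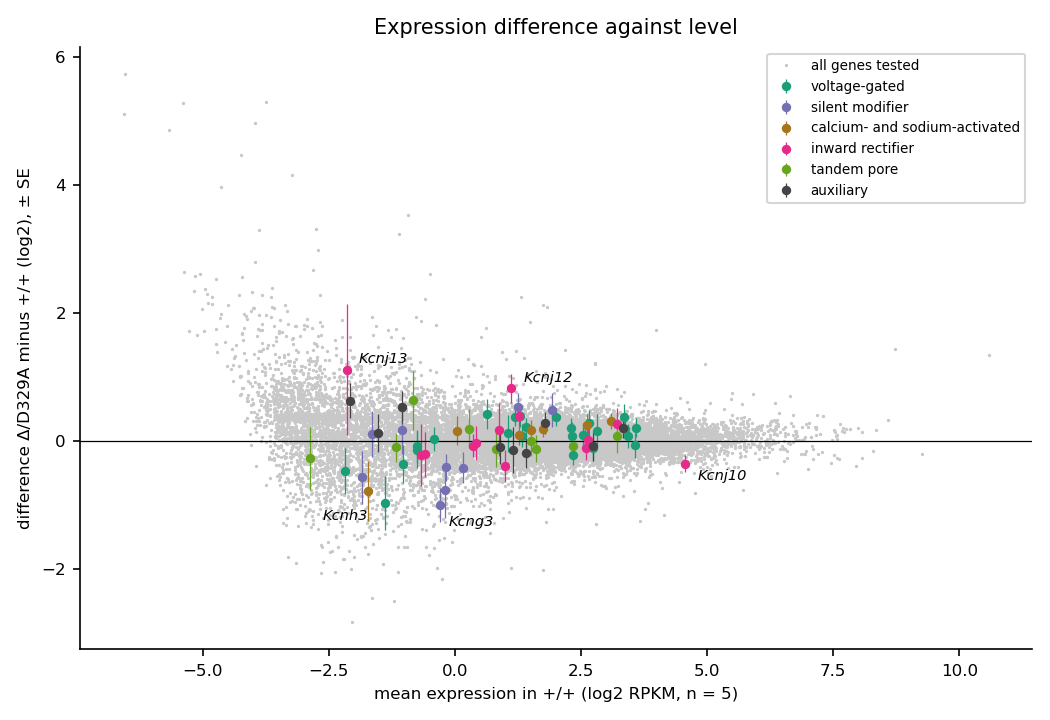
Log2 difference in expression (Δ/D329A minus +/+, bars ± SE) against the mean level in +/+ (log2 RPKM, n = 5) for the 74 tested potassium channel genes by class, over all 17839 genes in grey. Most members lie within the grey cloud around 0, with Kcng3 at -0.999 and Kcnj12 at 0.82.

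Genes outside the naming rule that make or carry potassium channels were looked at in the same fit. Of 20 such genes listed, 19 were in the table and 17 were tested, with 0 called (background 0.107%) and a median log2 difference of 0.06. At an unadjusted p under 0.05, 2 were higher (background 4.61%) and 0 lower (background 3.02%). Kcnab1, a cytoplasmic beta subunit of Kcna channels, differed by 0.59 and Cntnap2, which clusters Kcna channels beside the node of Ranvier, by 0.39 (both limma adjusted p = 0.355). Dpp6 and Dpp10, which escort Kcnd channels to the membrane, differed by 0.10 and 0.14.

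The promoters of potassium channel genes ranged from strong H3K4me3 alone to strong H3K27me3 alone, with many that carried both. A mark was taken as present where its mean over all 6 libraries, genotypes pooled, was at least 2 times that of the input libraries (both plus 0.1 RPM). Both marks were present at 18 of 89 members (20.2%) and at 7.44% of 25124 promoters. H3K4me3 alone was at 44 (49.4%, against 50.4%), H3K27me3 alone at 9 (10.1%, against 4.94%) and neither at 18 (20.2%, against 37.2%). These shares describe the list, with no test. The H3K27me3 cut divided a continuum, with 21 members from 1.6 to 2.5 times input. Kcnk6 and Kcnt1 lay just below it at 1.98 and 1.998, and Kcnmb4, Kcna1 and Kcnv1 were just above it at 2.09, 2.19 and 2.23.

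The 18 members with both marks were Kcna1, Kcna7, Kcnc2, Kcnh3 and Kcnh8 among the voltage-gated genes, Kcng1, Kcng2, Kcng3, Kcns3 and Kcnv1 among the silent modifiers, Kcnj4, Kcnj5, Kcnj8 and Kcnj10 among the inward rectifiers, Kcnip1, Kcnmb2 and Kcnmb4 among the auxiliary subunits, and the tandem-pore Kcnk12. The silent modifiers thus had both marks in 5 of 10 genes and the voltage-gated genes in 5 of 30, of which 20 had H3K4me3 alone. The 9 genes with H3K27me3 alone at the row start included Kcne1l, Kcne2, Kcne3, Kcnj15, Kcns1, Kcnk15, Kcnh6 and Kcnq1. Kcnq1, the slow cardiac and inner ear channel, and its partners Kcne2 and Kcne3 are best known outside the brain.

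Levels of RNA differed by state. The median level in +/+ was 1.68 log2 RPKM over the members with H3K4me3 alone, -0.00 over those with both, -4.34 over those with H3K27me3 alone and -2.91 over those with neither. Kcnj10, the highest of all, was among the members with both marks. Glia and neurons share these libraries, so both marks need not lie on the same chromatin. Across the 89 members, Spearman's rho between the level and promoter H3K4me3 was 0.71, as it was over 23068 genes. It was -0.30 for promoter H3K27me3 (-0.50 over all) and 0.64 for H3K36me3 over the body (0.68 over all), and the points share the same libraries. The median count of CG dinucleotides was 14 for H3K4me3 alone (n = 29), 8 for both (n = 13), 9 for H3K27me3 alone (n = 7) and 4 for neither (n = 11), against 17, 14, 5 and 2 over all matched promoters.

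**Figure D4:**
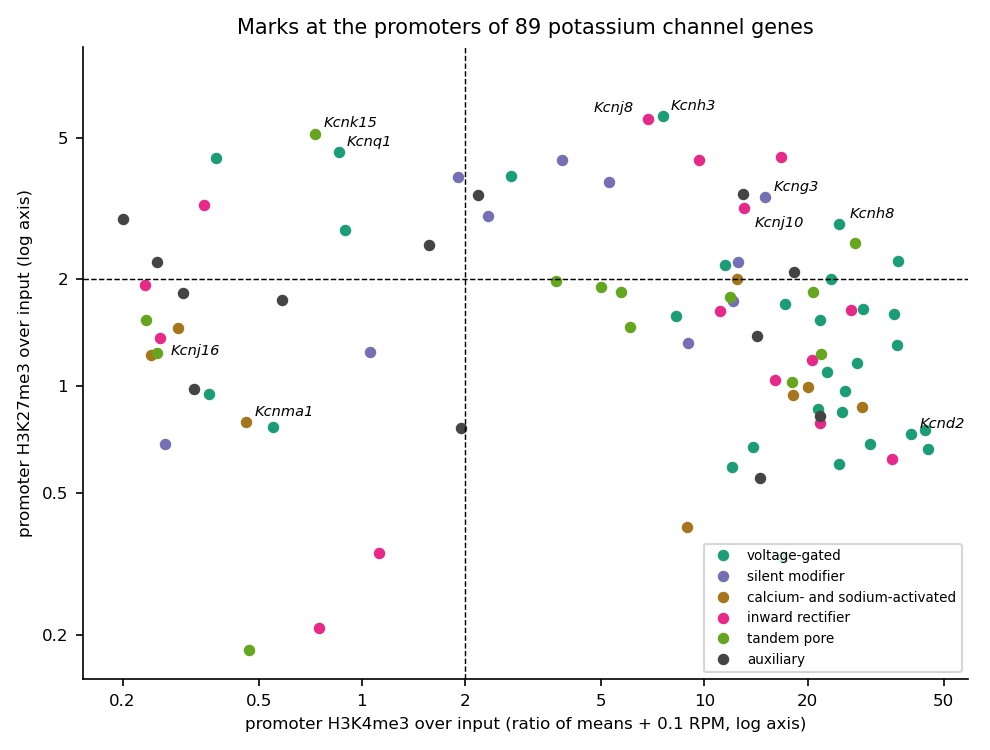
Promoter H3K4me3 (horizontal) and H3K27me3 (vertical) over input for the 89 potassium channel genes by class, as the ratio of means plus 0.1 RPM over 6 libraries on log axes, with dashed lines at 2. Kcnj8, Kcnh3, Kcng3, Kcnj10 and Kcnh8 lie in the upper right with both marks.

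The start of the gene row was not the marked start of every member. At the row start of Kcnma1, H3K4me3 was 0.313 RPM in +/+, while at a RefSeq start at -200901 bp from it, upstream, it was 39.0 RPM in +/+ and 37.3 in Δ/D329A. For Kcnj16 the first start in the list of promoter sequences held 0.130 RPM and the second, 29454 bp downstream, held 4.75 in +/+ and 4.23 in Δ/D329A. For Kcnip1 a start 149466 bp downstream held 8.58 RPM in +/+ against 1.96 near the row start. For Kcne3, placed above under H3K27me3 alone, a start 2013 bp inside the row held 5.56 RPM of H3K4me3 and 5.03 RPM of H3K27me3 in +/+, against 0.923 RPM in the input. The state of these 4 at the row start therefore describes that window and not the gene, and these starts were looked up after the values were seen.

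H3K4me3 at the promoter was lower in Δ/D329A at Kcnj8, the 1 member called of 89 (limma adjusted p under 0.05), where 217 of 25124 promoters (0.864%) were called, 0.701% with a lower value. An unadjusted p under 0.05 was reached by 5 members, all lower, where 4.1% of promoters reached it and 3.18% did so with a lower value. The groups did not overlap at 9 members (10.1%), 6 of them lower, against 6.24% of all promoters and 4.35% lower. The median log2 difference was -0.09 over the members and -0.07 over all promoters. With median centring of the libraries, which moved every difference up, these medians were 0.08 and 0.11, and 7 members were higher and 4 lower at an unadjusted p under 0.05 (background 11.4% and 2.39%), so the direction over the whole list rests on the scaling. The Δ/D329A replicate 1 library was low at marked promoters at large: over the 44 members with H3K4me3 alone its median was 13.3 RPM against 15.2 to 20.3 in the other 5 libraries, and over all 12657 such promoters 14.4 against 18.1 to 21.3.

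At the Kcnj8 promoter the +/+ libraries held 8.10, 8.75 and 8.93 RPM of H3K4me3 and the Δ/D329A libraries 2.98, 6.19 and 3.001. The +/+ libraries lay close together, and replicate 2 of Δ/D329A was about midway between them and the other mutant libraries. The means were 8.59 ± 0.44 and 4.06 ± 1.85 RPM (SD, n = 3 each), a log2 difference of -1.15 (SE 0.24, limma adjusted p = 0.000538). The difference was kept with median centring (-0.97, adjusted p = 0.0353) and with mitochondrial coverage as a block (-1.25, adjusted p = 5.13e-07). The call was lost without Δ/D329A replicate 1 (-0.98, adjusted p = 0.256), without Δ/D329A replicate 3 (-0.98, adjusted p = 0.0846) and without +/+ replicate 3 (-1.12, adjusted p = 0.0582). Without a filter on input coverage the difference was -1.15 with an adjusted p of 1. Kcnj8 also had the highest promoter H3K27me3 of all members, 5.36 RPM in +/+ and 5.09 in Δ/D329A, above 98.6% of promoters. Its RNA did not pass the test. The 5 mural cell markers, of the cells in which Kcnj8 is best known, summed to 28.6 to 41.3 RPKM in +/+ and 26.2 to 39.7 in Δ/D329A.

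The other 4 members with an unadjusted p under 0.05 all carried both marks too. Among promoters with both marks, 5 of 18 members (27.8%) were lower at that p, about the share of all such promoters (489 of 1870, 26.1%). At Kcng3, H3K4me3 was 13.6, 14.4 and 11.4 RPM in +/+ and 6.90, 9.58 and 9.29 in Δ/D329A, a log2 difference of -0.61 (limma adjusted p = 0.241). All 3 mutant libraries were below all +/+ libraries, and the RNA libraries of Kcng3 had the same order. Whether RNA and ChIP came from the same animals cannot be told from the study, whose legends give both sexes for the RNA animals. At Kcnj10 it was 13.4, 13.5 and 13.1 RPM in +/+ and 6.24, 13.0 and 9.55 in Δ/D329A (-0.53, adjusted p = 0.525), with replicate 1 lowest and replicate 2 just under the +/+ libraries. At Kcna7, a voltage-gated channel of muscle, it was 2.47, 2.66 and 2.96 against 1.72, 1.34 and 0.839 (adjusted p = 0.168). At Kcnh3 the groups overlapped, with 12.8, 4.69 and 6.37 against 2.92, 6.47 and 5.03 (adjusted p = 0.345). Without Δ/D329A replicate 2, or with mitochondrial coverage as a block, Kcng3 was called as well (limma adjusted p = 0.028 and 0.012). Calls over all promoters also moved with the setting, from 0 to 495, with 217 in the main fit. With the block, 7.64% of all promoters were lower at an unadjusted p under 0.05. Among promoters with both marks, 11 of 18 members (61.1%) and 45.7% of all were then lower at that p. With median centring the Kcng3 difference was -0.44 (adjusted p = 0.151), and over the input of the same animal it was -0.24 (adjusted p = 0.9999).

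At promoters with both marks the H3K4me3 difference was negative at 17 of the 18 members (median -0.32) and at 1607 of all 1870 such promoters (median -0.27). With median centring it was negative at 14 of the 18 (median -0.14) and at 1195 of the 1870 (median -0.09). Without Δ/D329A replicate 1, the library low at marked promoters, it was negative at 14 (median -0.13) and at 1308 (median -0.16). At the 44 members with H3K4me3 alone the median was -0.07, against -0.08 over all such promoters, and with median centring these medians changed sign, to 0.11 and 0.10. H3K27me3 was positive at 12 of the 18 (median 0.12) and at 1219 of the 1870 (median 0.11), and with median centring at 11 and 1185.

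**Figure D5:**
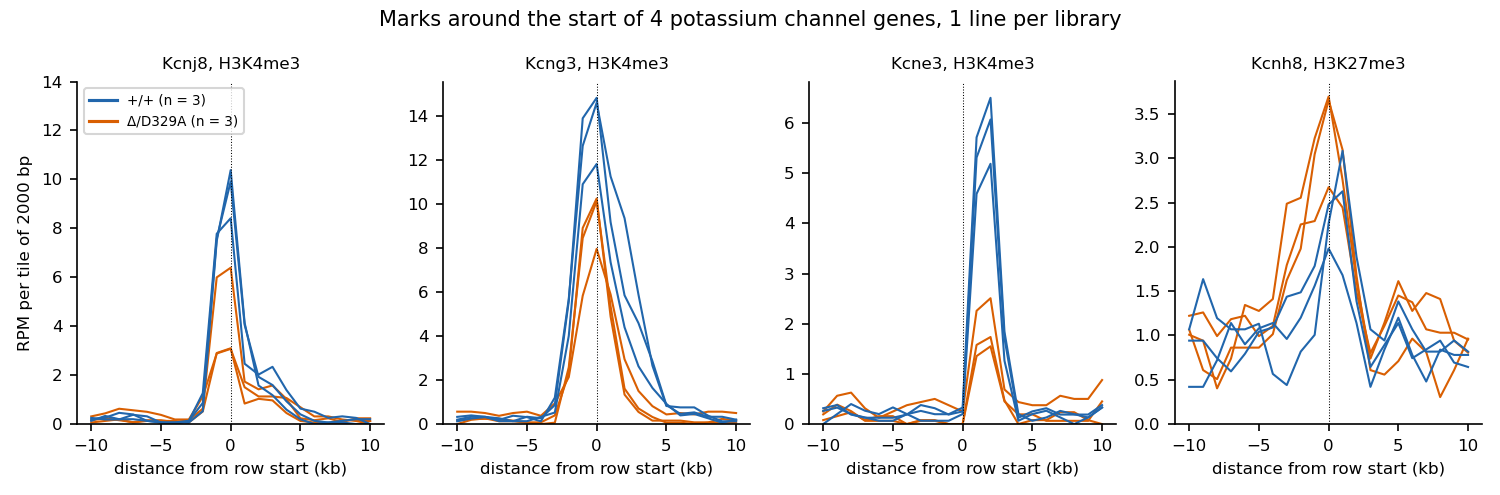
RPM per 2000 bp tile against the distance from the start of the gene row (kb), 1 line per library (3 per genotype), for H3K4me3 at Kcnj8, Kcng3 and Kcne3 and H3K27me3 at Kcnh8. The Δ/D329A lines peak lower at Kcnj8, Kcng3 and Kcne3, and the Kcne3 peak lies 1 to 2 kb inside the row.

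H3K27me3 at the promoter was higher in Δ/D329A at Kcnh8, a slowly activating ether-a-go-go-like channel, the 1 member called of 89 where 253 promoters (1.01%) were called, 0.8% with a higher value. The +/+ libraries held 1.64, 1.77 and 2.13 RPM and the Δ/D329A libraries 3.46, 2.48 and 3.35. All 3 mutant libraries were above all +/+ libraries. The means were 1.85 ± 0.26 and 3.099 ± 0.54 RPM (SD, n = 3 each), a log2 difference of 0.71 (SE 0.19, limma adjusted p = 0.0464). This call was close to the threshold. It was lost with a pseudocount of 0.02 RPM (adjusted p = 0.0718), with median centring (0.0585), with mitochondrial coverage as a block (0.103), over the input of the same animal (0.604) and without the input filter (0.406). It was also lost without +/+ replicates 1, 2 or 3 (adjusted p = 0.212, 0.213 and 0.0532) and without Δ/D329A replicates 1 or 3 (0.338 and 0.292), while the log2 difference stayed between 0.61 and 0.86 in all settings run. The RNA of Kcnh8 was at -0.42 ± 0.27 log2 RPKM in +/+ and -0.38 ± 0.15 in Δ/D329A, and its promoter H3K4me3 at 23.1 and 21.3 RPM.

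No other member passed the test for this mark. An unadjusted p under 0.05 was reached by 7 of 89, where 9.67% of promoters reached it, and 6 of the 7 were higher (background 5.39%). The groups did not overlap at 13 (14.6%), against 13.9%. Kcna1, an axonal delayed rectifier, differed by 0.61 (limma adjusted p = 0.189), Kcna2 by 0.77, Kcna3, of neurons and immune cells, by 0.75, the G protein-gated Kcnj5 by 0.35 and Kcne1, the partner of Kcnq1, by 0.42, while the silent Kcnf1 differed by -0.53. The Kcna2 and Kcna3 promoters held H3K27me3 at about the level of the input or below it. At Kcna2 it was 0.366 RPM in +/+ and 0.678 in Δ/D329A, with 0.881 and 0.783 in the input, and at Kcna3 it was 0.461 and 0.870, with 0.716 and 0.862 in the input. Promoter H3K27me3 in +/+ was also high at Kcnq1 (5.22 RPM), Kcnk15, a tandem-pore gene (5.05), Kcnh3 (5.03) and Kcns1, a silent subunit of sensory neurons (4.34). The part of the list with positive differences was 59 of 89 (66.3%), where 46.6% of all promoters were positive, with medians of 0.06 and -0.03. Over the input of the same animal these shares were 58.4% and 43.6%, and with mitochondrial coverage as a block 59.6% and 45.1%. In the main fit they were alike at promoters with both marks (66.7% and 65.2%). At promoters with H3K4me3 alone, where H3K27me3 was below the cut, they were 56.8% and 39.8%. No test was made of these shares.

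H3K36me3 was called at no member, at promoters (0 of 89, background 0.0358%) or over bodies (0 of 89, background 0%). At an unadjusted p under 0.05 limma found 4 members at promoters (background 7.23%) and 7 over bodies (background 15.4%). Groups without overlap were found at 14 promoters (15.7%, background 12%) and 11 bodies (12.4%, background 22.4%). In +/+ the highest body H3K36me3 was at Kcna2 (2.12 RPM), Kcna6 (2.03) and Kcnj13 (1.90), and for Kcnj13 that window lies within Gigyf2, a gene at 2.44 log2 RPKM. Kcnj2, a strong inward rectifier, had 1.28 RPM in +/+ and 0.966 in Δ/D329A over its body.

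Over gene bodies, H3K4me3 was called at 0 of 89 members, where 18 of 23144 bodies (0.0778%) were called. An unadjusted p under 0.05 was reached by 8 members, all lower, against 4.1% of bodies and 2.99% lower. The groups did not overlap at 9 members, all lower (10.1%, background 6.75%, lower 4.58%). Kcne3, an accessory subunit of epithelial and muscle channels, had 1.997, 1.67 and 2.10 RPM in +/+ and 1.03, 0.601 and 0.552 in Δ/D329A. The highest mutant library was below the lowest +/+ library. The log2 difference was -1.33 (SE 0.21, limma adjusted p = 0.0884), and without Δ/D329A replicate 1 it was -1.58 (adjusted p = 0.0389) and over the input of the same animal -1.53 (0.0381). Without any 1 of the other 5 libraries the adjusted p was 0.0943 to 0.291, with mitochondrial coverage as a block 0.103 and without the input filter 0.575. The signal lay at the RefSeq start inside the row, where H3K4me3 was 5.69, 4.89 and 6.11 RPM in +/+ and 2.38, 1.66 and 1.45 in Δ/D329A, with H3K27me3 at 5.03 and 5.55 RPM. At the row start itself H3K4me3 was 0.206 and 0.105 RPM. Kcne3 was not tested for expression. Kcnj2 had 7.80 RPM in +/+ and 5.33 in Δ/D329A over its body (adjusted p = 0.501).

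H3K27me3 over bodies was called at 0 of 89 members and at 1 of 23144 bodies (0.00432%). At an unadjusted p under 0.05 limma found 9 members (background 11.6%), and the groups did not overlap at 23 (25.8%, background 19.9%). Kcne4, an auxiliary subunit that dampens Kcna and Kcnq channels, differed by 0.53 (adjusted p = 0.34) and Kcnj13 by -0.68. For Kcnj13 this ran from -1.12 to -0.24 over the other settings (limma adjusted p from 0.272 to 0.631). Its row overlaps Gigyf2, and H3K27me3 at the row start was low, at 0.0898 RPM in +/+ with 0.916 in the input.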

How the data were processed

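RNA-seq and ChIP-seq libraries of 1 mouse hypothalamus each were grouped by genotype from their labels. The replicate libraries are separate animals. A further mutant RNA library was left out by the authors, and the bisulfite libraries of the series were not analysed here. Per the submitters' processing notes, reads were trimmed with Trim Galore 0.4.3 and aligned to GRCm38 with HISAT2 2.0.5 (RNA) or Bowtie2 2.3.2 (ChIP). The paper's methods differ, with later versions of Trim Galore and HISAT2, and with Bowtie in place of Bowtie2. The authors deposited expression as log2 RPKM per gene, and ChIP signal as RPM (reads scaled to library size) in 2000 bp tiles at a step of 1000 bp. Chromatin was digested with micrococcal nuclease, from a small share of each hypothalamus. The study describes a strand-specific kit, and whether the counting used strand is not given in the sources used here.

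The rule for the members uses names alone, but it and the lists were chosen with earlier results of these data known. Expression was tested with limma 3.58.1 (trend, Benjamini-Hochberg, two-sided) on the deposited log2 values over genes at 0.1 RPKM or more in 4 libraries, with mitochondrial genes left out and a call at an adjusted p under 0.01. Whole reads were recovered for all genes from the RPKM values (tolerance 0.05), and edgeR 4.0.16 and DESeq2 1.42.0 were run on them. Marks were tested with limma on log2(RPM + 0.1), with input of at least 0.1 RPM, at an adjusted p under 0.05. With 3 against 3 an exact permutation p cannot go below 0.1. Median tiles held 1 to 5 reads for H3K4me3, 8 to 15 for H3K27me3 and 10 to 12 for H3K36me3, so differences in weak tiles were not detectable at this depth. Genes named in the text are all called members, those with the smallest p, the highest of each class or mark and a list of well-known channels, with others named after their values were seen. A few members entered every fit and count but are not reported here singly. The scripts were tested on simulated data.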

Additional observations from a re-analysis of the deposited data

Results flagged for a closer look

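Among 30 named genes, 60 groups of libraries were looked at for a library far from the rest of its group, a check that by chance marks about 1 group in 20. It marked 2, both in Δ/D329A replicate 2, the RNA library with the fewest reads (10519195). Kcnj10 lay at 4.03 log2 RPKM there, with the other 3 libraries at 4.27 to 4.28. Kcnip1 lay at 1.89, with the others at 2.11 to 2.14. Without this library the log2 difference of Kcnj10 was -0.29 (limma adjusted p = 0.607).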

How the results depend on the processing

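The number of potassium channel genes called for expression was 0 under every limma and edgeR setting and 1 with DESeq2, while the number at an unadjusted p under 0.05 was 11 of 74 as deposited, 20 with median centring (background 13.8%) and with TMM factors (14.1%), and 19 with quantile normalization (15.1%) and with library weights (17.4%). At promoters, H3K4me3 calls numbered 1, and 0 without the input filter, 4 with mitochondrial coverage as a block and 0 to 4 when 1 library was left out. H3K27me3 calls numbered 1, and 0 with a pseudocount of 0.02 RPM, without the input filter, with median centring, over the input of the same animal and with mitochondrial coverage as a block, and 0 to 1 when 1 library was left out. H3K4me3 calls over gene bodies numbered 0, and 1 over input (Kcne3) and 0 to 1 when 1 library was left out. The replicate numbers did not pair the libraries (correlations of deviations from -0.26 to 0.24), and with the replicate number as a block 5 members were called over bodies (Kcns1, Kcnj8, Kcne3, Kcng3 and Kcne1l) of 477 in all. For the promoter marks, the share of all promoters called under each single setting is not given. The member counts by setting are therefore no result about the members. Over all genes, calls ranged from 11 to 251 for expression, from 0 to 495 for promoter H3K4me3 and from 0 to 463 for promoter H3K27me3. The cause of these shifts was not tested.

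Small expression differences, none of them called, changed sign. With the replicate block Kcnj3 was at -0.0193, Kcnk1 at -0.055 and Kcnq5 at -0.0032, and with library weights Kcnk3 was at 0.091. With 1 library left out, Kcnip3 ranged from -0.23 to 0.072, Kcnj3 from -0.091 to 0.13, Kcnk1 from -0.055 to 0.24, Kcnk2 from -0.19 to 0.0030, Kcna2 from -0.17 to 0.039, Kcnj11 from -0.045 to 0.55, Kcnj8 from -0.53 to 0.22, Kcnq5 from -0.0032 to 0.16 and Kcnk3 from -0.10 to 0.18.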
